A study of Homo sapiens with 4 samples.

Results

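The MAGE family is a group of genes that share the MAGE homology domain. Its members were taken as the protein-coding genes whose symbol begins with MAGE, followed by a letter from A to L and a number, together with NDN and NSMCE3. GENCODE v29 holds 37 such genes, and 35 of them had a row among the 57905 genes counted in each sample. MAGEA2 and MAGEA9B were the 2 without a row of their own. The 35 members fall into 24 germline-restricted genes (MAGEA, MAGEB and MAGEC) and 11 ubiquitous genes (MAGED, MAGEE, MAGEF, MAGEH and MAGEL2, with NDN and NSMCE3), and the chaetocin-treated cells were compared with control cells for each class. The 3 rows MAGEA5, MAGEA7P and MAGEA13P are annotated as pseudogenes and are not members.

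RNA of U87MG cells, an established human glioblastoma (GBM) line of wild type genotype, was sequenced in 2 groups of 2 samples. Chaetocin, a fungal metabolite that inhibits histone methyltransferases of the SU(VAR)3-9 kind and thioredoxin reductase, was given at 50 nM for 24 h, dissolved in DMSO. The control cells were left untreated, so the effect of DMSO and that of chaetocin cannot be told apart. All samples come from 1 cell line. The labels do not say whether the 2 samples of a group came from separate cultures, so the p-values measure the spread between these samples, which may be technical.

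The values are reads counted on each gene. They summed to between 21241984 and 32590479 per sample, and 3 reads correspond to between 0.0844 and 0.138 CPM (reads scaled to a common library size, with TMM factors). A member below that level can have no read by chance, and this floor covers counting error only, since reads copied by PCR are not independent molecules. Of 10 glioblastoma line markers, VIM (vimentin) had 68248 and 65218 reads in control cells and 38195 and 40788 with chaetocin, and FN1 (fibronectin) had 157968 and 138923 against 76067 and 71864. SOX2 and S100B had no read in either control sample and at most 5 reads with chaetocin. Of the 8 tested, edgeR called 1 marker lower, CHI3L1 (log2 fold change -1.28, edgeR adjusted p = 0.0266), while DESeq2 called 5 lower and 6 were lower at an unadjusted p under 0.05. All 8 had a log2 fold change below 0, with a summed level of 12756 and 10317 CPM in control cells and 7141 and 4265 CPM with chaetocin, and the part of this in the results on MAGE genes was not tested. Of 12 leukocyte markers, PTPRC (0 and 1 reads in control cells, 15 and 27 with chaetocin) and ITGAM (0 and 1 against 24 and 29) were called higher by edgeR, while DESeq2 called 1 of the 2, ITGAM. PTPRC, ITGAM and CD68 reached the minimum of the low-count filter in the chaetocin samples alone, so these counts are no support for a difference. CSF1R and CD14, the most abundant uncalled markers, had log2 fold changes of -0.05 and 1.30 (edgeR adjusted p = 0.954 and 0.279), and CD3E, MS4A1 and TYROBP had no read in any sample. The summed level of the leukocyte list was 27.7 and 22.7 CPM in control cells and 35.5 and 18.7 CPM with chaetocin, most of it CSF1R, and its part was not tested either.

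MAGE proteins bind E3 ubiquitin ligases, mostly of the RING type, and steer which substrates these ligases act on. The MAGEA, MAGEB and MAGEC genes lie on the X chromosome, are normally transcribed in the testis and few other tissues, and are silenced elsewhere largely by DNA methylation of their promoters. They are known as cancer-testis antigens because many tumours, glioblastoma among them, transcribe them again. Many of the members classed as ubiquitous are active in most tissues. MAGED1 takes part in neurotrophin receptor signalling and apoptosis, NDN (necdin) is an imprinted growth regulator of neurons, and NSMCE3 is a subunit of the SMC5/6 complex that maintains chromosomes.

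None of the 12 MAGE members that could be tested was called changed by edgeR, while DESeq2 called MAGED1 lower. After genes with low counts were removed, 12 members were among the 16416 genes tested, and edgeR's quasi-likelihood test with Benjamini-Hochberg adjustment over all of them (threshold 0.05) called 0 members higher and 0 lower. Over all genes tested, 1.11% were called higher (182 genes) and 0.743% were called lower (122 genes). At an unadjusted p under 0.05, 3 members were higher (MAGEB6, MAGEA1 and MAGEF1) and 2 were lower (MAGED1 and MAGEC1), beside 10.9% of all genes higher and 9.43% lower. DESeq2's Wald test called 0 members higher and 1 lower, beside 2.35% of all genes higher and 2.93% lower. With the replicate number as a block, edgeR called MAGEB6 higher and MAGED1 lower, beside 6.31% of all genes higher and 6.41% lower. In 5 of the 12 members both chaetocin samples lay above both control samples in CPM, and in 4 both lay below, whereas 26.8% of all genes tested lay above in this way and 26.0% below. MAGEB6 passed the filter on low counts through the chaetocin samples alone, so its presence among the 12 is no support for a difference. In these bulk samples, fewer cells that transcribe a gene and less of its RNA per cell cannot be told apart.

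The most abundant ubiquitous members lay far above every germline-restricted member, while 4 ubiquitous members had at most 3 reads in all. Per length, MAGED2 had 51.2 ± 7.01 RPKM (CPM per kilobase of exon, SD, n = 2) in control cells and MAGED1 had 47.3 ± 5.54 RPKM, and these 2 levels overlapped between samples. They were followed by MAGEF1 (20.1 ± 0.0826 RPKM), NDN (10.5 ± 1.15 RPKM), MAGEH1 (7.80 ± 0.699 RPKM) and NSMCE3 (6.60 ± 1.14 RPKM), of which MAGEH1 and NSMCE3 overlapped. The highest germline-restricted member in control cells was MAGEC2 with 1.25 ± 0.0909 RPKM, followed by MAGEA1 with 1.03 ± 0.0993 RPKM, MAGEC1 with 0.707 ± 0.0317 RPKM and MAGEA6 with 0.611 ± 0.256 RPKM. MAGEE1, the lowest tested ubiquitous member, lay below these with 0.344 ± 0.0249 RPKM. The levels of MAGEC1 and MAGEA6 overlapped. With chaetocin, MAGEA1 was the highest germline-restricted member with 1.86 ± 0.111 RPKM, above MAGEC2 with 0.770 ± 0.0112 RPKM in every sample. Among the ubiquitous members with chaetocin, MAGED1 had 30.2 and 23.7 RPKM and MAGEF1 had 27.6 and 24.7 RPKM, and these overlapped.

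**Figure D1:**
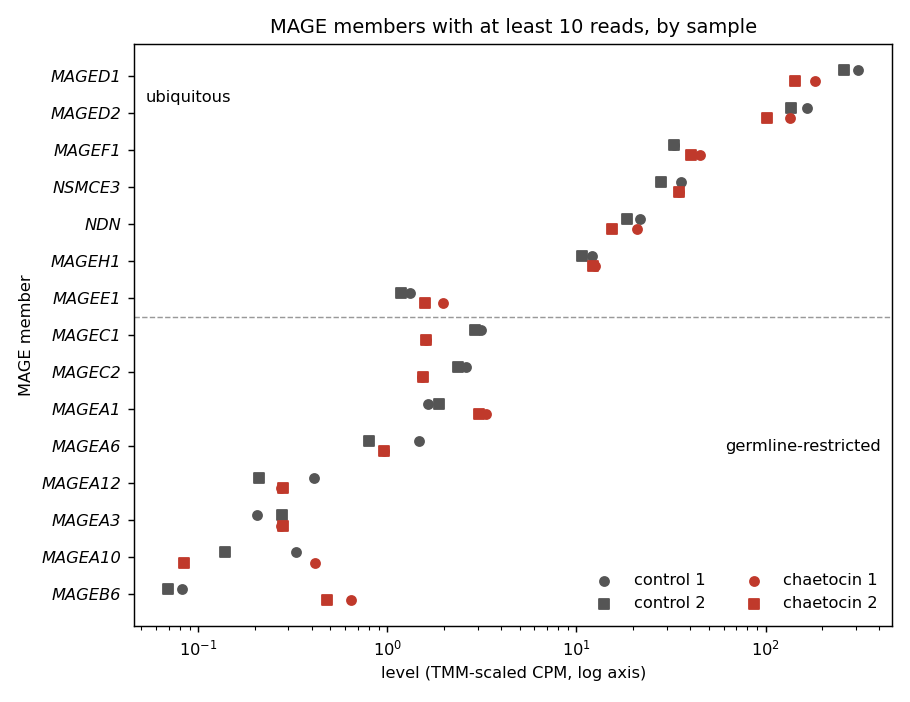
Level of each of the 15 MAGE members with at least 10 reads over the 4 samples, in TMM-scaled CPM on a log axis, with 1 point per sample, circles for replicate 1 and squares for replicate 2. Ubiquitous members lie above the dashed line and germline-restricted members below it, with both chaetocin samples to the left of both controls for MAGED1, MAGED2 (not without TMM factors), MAGEC1 and MAGEC2 and to the right for MAGEA1, MAGEB6, MAGEE1, MAGEF1 and MAGEH1.

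Summed over its members, the germline-restricted class had 243 and 251 reads in control cells and 198 and 305 with chaetocin. This corresponds to 9.96 and 8.73 CPM in control cells and 9.10 and 8.59 CPM with chaetocin, so the groups overlapped. The ubiquitous class had 577 and 488 CPM in control cells and 431 and 349 CPM with chaetocin, and the 2 groups did not overlap. MAGED1 and MAGED2 carried this difference, since the other 9 ubiquitous members together had 104 and 91.2 CPM in control cells and 115 and 105 CPM with chaetocin. No p is given for these sums, since an exact permutation test of 2 against 2 samples cannot go below p = 0.33. The median log2 fold change was -0.23 over the 5 tested germline-restricted members and 0.12 over the 7 tested ubiquitous members, beside 0.01 over all 16416 genes and -0.07 over the 519 tested genes of the X chromosome. Both class medians rest on single members near 0 and change sign when 1 control sample is left out. The germline-restricted median turned to 0.47 without control replicate 1 and the ubiquitous median to -0.06 without control replicate 2. The filter was applied anew in each fit, and the 0.47 comes from a changed set of tested members. MAGEA6, the middle member of the reported fit, was at 0.25 without control replicate 1.

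**Figure D2:**
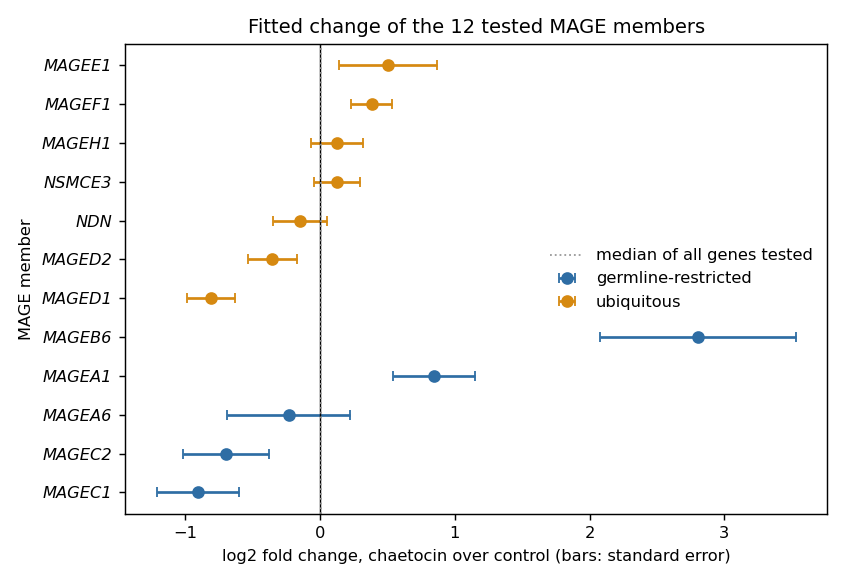
Fitted log2 fold change of the 12 tested MAGE members, chaetocin over control, with the standard error as bars, grouped into germline-restricted and ubiquitous members. The values run from -0.91 for MAGEC1 to 2.80 for MAGEB6, and the dotted line marks the median of all genes tested, 0.01.

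While the summed levels of the germline-restricted class overlapped, its composition differed between the groups, with a smaller share of MAGEC1 and MAGEC2 and a larger share of MAGEA1 in both chaetocin samples. MAGEC1 and MAGEC2 together made up 57.6% and 60.6% of the germline-restricted reads in control cells (95% Wilson intervals 51.3 to 63.7% and 54.4 to 66.4%). With chaetocin they made up 34.3% and 36.7% (28.1 to 41.2% and 31.5 to 42.3%). MAGEA1 took 16.5% and 21.5% of these reads in control cells (12.33 to 21.64% and 16.88 to 27.01%) and 36.4% and 35.4% with chaetocin (30.0 to 43.3% and 30.3 to 40.9%). None of these intervals overlapped between the groups, and they cover counting error only. These shares were chosen after the data were seen and use no normalization, and with 2 samples a group no test of them was made.

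**Figure D3:**
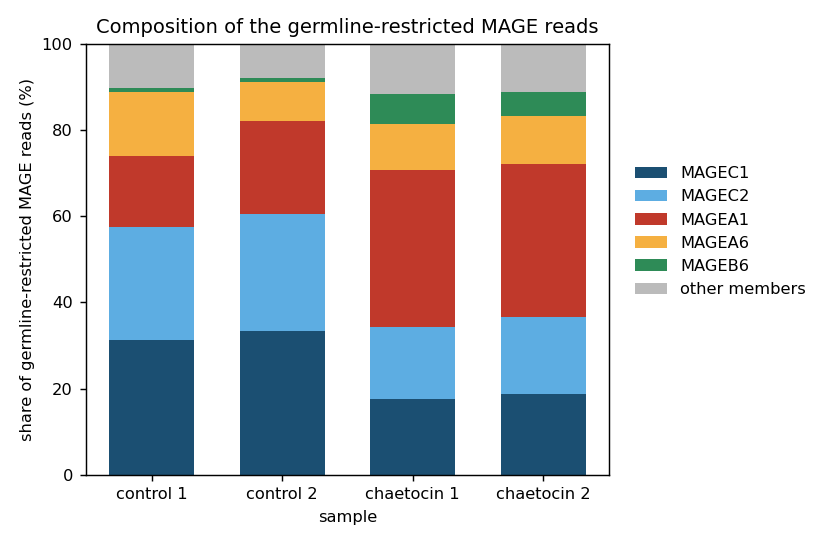
Share of the germline-restricted MAGE reads, in percent, taken by each of 5 members and by the other members together, in 1 stacked bar per sample. MAGEC1 and MAGEC2 fill 57.6% and 60.6% of the 2 control bars and 34.3% and 36.7% of the 2 chaetocin bars, and MAGEA1 fills 16.5% and 21.5% against 36.4% and 35.4%.

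MAGEC1 (ENSG00000155495, chromosome X, 141903894 to 141909388 on GRCh38, plus strand) encodes a cancer-testis antigen also known as CT7. It had 76 and 84 reads in control cells and 35 and 57 with chaetocin. Its level was 3.02 ± 0.135 CPM in control cells and 1.61 ± 0.003 CPM with chaetocin (SD, n = 2 each), with both chaetocin samples below both controls. The SD of 0.003 CPM is smaller than the counting error of 35 and 57 reads, so it overstates how well this level is known. The log2 fold change was -0.91 (standard error 0.30, edgeR adjusted p = 0.149), which did not pass the threshold, and over all alternatives the adjusted p ran from 0.0851 to 0.542.

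MAGEC2 (ENSG00000046774, chromosome X, 142202345 to 142205290, minus strand), whose protein binds the ligase TRIM28, had 64 and 68 reads in control cells and 33 and 55 with chaetocin. In CPM the values were 2.62 and 2.37 against 1.52 and 1.55, a log2 fold change of -0.70 that did not pass the test (edgeR adjusted p = 0.266). MAGEC1 took 54.3% and 55.3% of the reads of this pair in control cells and 51.5% and 50.9% with chaetocin, with Wilson intervals that overlapped in all 4 samples. MAGEC3, the third gene of the group, had 2 and 0 reads in control cells and 1 and 4 with chaetocin, too few for a fold.

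MAGEA1 (ENSG00000198681, chromosome X, 153179285 to 153183880, plus strand) encodes the first human tumour antigen found to be recognised by T cells. It had 40 and 54 reads in control cells and 72 and 108 with chaetocin, or 1.64 and 1.88 CPM against 3.31 and 3.04 CPM. Both chaetocin samples lay above both controls, and the ratio of a chaetocin to a control sample lay between 0.69 and 1.013 on the log2 scale over the 4 pairs of samples. The log2 fold change was 0.85 (standard error 0.30, edgeR adjusted p = 0.170), which did not pass the threshold, with adjusted p from 0.103 to 0.655 over the alternatives. The ratio of MAGEA1 to MAGEC1 reads, which needs no scaling between samples, was 0.526 and 0.643 in control cells and 2.06 and 1.89 with chaetocin. This pair joins a higher and a lower member and was chosen after the data were seen. The ratio is thus no further support for a difference, and it was not tested.

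MAGEB6 (ENSG00000176746, chromosome X, 26192440 to 26195646, plus strand), a testis gene of the MAGEB cluster, had 2 reads in each control sample and 14 and 17 with chaetocin. Summed over the samples this is 4 against 31 reads, a ratio of 7.19 with a 95% counting interval from 2.54 to 28.0. This interval pools the 2 samples of a group and covers counting error only. MAGEB6 passed the filter on low counts through the chaetocin samples alone, so these counts are no support for a difference. The fitted log2 fold change was 2.80 (standard error 0.72, edgeR adjusted p = 0.0854), and over the alternatives the adjusted p ran from 0.0325, with the replicate block, to 0.440. Of the windows of 50 bases in its transcripts, 8.37% also occur in MAGEB6B, which had no read in any sample.

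MAGEA6 had 36 and 23 reads in control cells and 21 and 34 with chaetocin, and the groups overlapped. Its log2 fold change of -0.23 (edgeR adjusted p = 0.823) turned to 0.25 without control replicate 1. MAGEA3, its near-identical copy, had 5 and 8 reads against 6 and 10. Of the windows of 50 bases, the read length, 53.9% of those of MAGEA6 and 56.5% of those of MAGEA3 also occur in another gene, so how reads were divided between these 2 is uncertain. MAGEA12 had 10 and 6 reads against 6 and 10, and MAGEA10 had 8 and 4 against 9 and 3. Neither passed the filter, and in both the groups overlapped.

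The other 16 germline-restricted members were at or near 0. Besides MAGEC3, the reads in the order of control replicates 1 and 2 and chaetocin replicates 1 and 2 were 0, 1, 0 and 2 for MAGEB10, 0, 1, 0 and 1 for MAGEA11, 0, 0, 1 and 1 for MAGEB16, 0, 0, 0 and 2 for MAGEB17 and 0, 0, 0 and 1 for MAGEB2. The remaining 10 (MAGEA2B, MAGEA4, MAGEA8, MAGEA9, MAGEB1, MAGEB3, MAGEB4, MAGEB5, MAGEB6B and MAGEB18) had no read in any sample, which allows a level of up to 0.0844 CPM in the deepest sample. For MAGEA2B and MAGEA9 this says little, since 88.1% and 94.0% of their windows also occur in MAGEA2 and MAGEA9B. Of the 13 germline-restricted members without a read in the control samples, 3 had a read with chaetocin, and none of these had more than 2. One of them, MAGEB17, overlaps the antisense gene AC078993.1, which had 1 and 7 reads in control cells and 5 and 14 with chaetocin, and reads of the 2 cannot be told apart without strand. At least 1 read was found for 9 and 10 germline-restricted members in control cells and for 10 and 14 with chaetocin. After all samples were thinned to the total of the smallest one, it was 9 and 8 in control cells and 10 and 14 with chaetocin.

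The bases before the transcription start of 5 germline-restricted members and of MAGED1 are shown to compare the short words they hold. In both chaetocin samples MAGEC1 and MAGEC2 lay below the controls and MAGEB6 lay above them, while the groups overlapped for MAGEA6 and MAGEA12. Each line gives 100 bases 5′ to 3′ on the strand of the gene, ending at the base before a RefSeq start on GRCh38.p14. MAGEA12 and MAGED1 have 2 starts each, of which 1 was chosen after the sequences were seen, and the 100 bases before the other start hold none of the marked words in either gene. They cover chrX:141903794-141903893 (plus strand) for MAGEC1, chrX:142205291-142205390 (minus strand) for MAGEC2, chrX:152733657-152733756 (plus strand) for MAGEA12, chrX:152769690-152769789 (minus strand) for MAGEA6, chrX:26192340-26192439 (plus strand) for MAGEB6 and chrX:51893523-51893622 (plus strand) for MAGED1. Capitals mark the words CCGGATGT, GGATGTG and CCGGAAGT, and the first 2 overlap where both occur.
MAGEC1: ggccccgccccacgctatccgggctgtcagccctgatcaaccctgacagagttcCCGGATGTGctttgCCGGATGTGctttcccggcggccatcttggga
MAGEC2: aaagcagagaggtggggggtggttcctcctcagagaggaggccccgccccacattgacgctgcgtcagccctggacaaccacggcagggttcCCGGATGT
MAGEA12: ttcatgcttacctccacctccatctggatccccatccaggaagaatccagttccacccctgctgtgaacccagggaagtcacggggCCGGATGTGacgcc
MAGEA6: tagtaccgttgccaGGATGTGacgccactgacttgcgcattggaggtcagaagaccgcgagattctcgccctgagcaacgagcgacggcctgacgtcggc
MAGEB6: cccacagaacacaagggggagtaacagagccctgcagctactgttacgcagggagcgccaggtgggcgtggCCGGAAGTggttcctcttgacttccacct
MAGED1: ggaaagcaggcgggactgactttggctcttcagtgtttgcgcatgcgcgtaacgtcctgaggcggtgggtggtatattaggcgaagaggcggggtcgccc

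MAGEC1 held CCGGATGT 2 times within these 100 bases, and MAGEC2 held it directly before its start. The windows of MAGEA3 and MAGEA6 were identical over all 100 bases and held GGATGTG without the longer word. MAGEB6 held CCGGAAGT, a classical binding word of ETS factors, whereas the MAGED1 window held none of the words.

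Of the 35 members, 31 had at least 1 window in the RefSeq table, with 41 windows in all, and MAGEA1, MAGEA10, MAGEB17 and MAGEH1 had none. Over the full 250 bases before each start and on both strands, CCGGATGT occurred in 15 of 28 windows of germline-restricted members (10 of 21 genes) and in 0 of 13 windows of ubiquitous members. Of all 35116 windows of the genome, 0.592% held it. GGATGTG occurred in 17 of 28 windows of germline-restricted members and 3.52% of all windows, and CCGGAAGT in 2 of 28 (1 each of MAGEB6 and MAGEB16) and 3.42% of all windows. The words were chosen after the sequences were seen, and the promoters of related genes are not independent, so these shares are a description. At least 10 reads were found for 3 of 10 germline-restricted genes with CCGGATGT and for 3 of 11 without it, a tally that does not hold MAGEA1 and MAGEA10. The median number of CG dinucleotides in 250 bases was 8 for germline-restricted windows, 12 for ubiquitous windows and 11 for all windows.

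Among the ubiquitous members, MAGED1 was the most abundant in reads and the member with the smallest p. MAGED1 (ENSG00000179222, chromosome X, 51803007 to 51902357, plus strand, 12 coding exons) had 7518 and 7497 reads in control cells and 3957 and 5069 with chaetocin. In CPM the samples held 308 and 261 against 182 and 143, with both chaetocin samples below both controls. The log2 fold change was -0.81 (standard error 0.18, edgeR adjusted p = 0.0620), just outside the threshold. The call depended on the test, with adjusted p = 0.00214 in DESeq2, 0.000252 without the filter on low counts and a range from 0.000252 to 0.292 over all alternatives. It also depended on the library left out, with adjusted p = 0.000546 without chaetocin replicate 1, 0.0190 without chaetocin replicate 2, 0.292 without control replicate 1 and 0.0711 without control replicate 2. These fits differ in how many genes they call, with 2.39% of all genes lower without the filter, 9.48% without chaetocin replicate 1 and 5.59% without chaetocin replicate 2. The log2 fold change stayed between -0.99 and -0.65 in all of these.

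MAGED2 (ENSG00000102316, chromosome X, 54807599 to 54816012, plus strand), a MAGED1 paralog known for salt handling in the fetal kidney, had 4031 and 3909 reads against 2917 and 3607. The log2 fold change was -0.36 (edgeR adjusted p = 0.321), and it was called lower only when chaetocin replicate 1 was left out (-0.57, adjusted p = 0.0181), with adjusted p from 0.0181 to 0.902 over all alternatives. The reads of MAGED1 per read of MAGED2 were 1.87 and 1.92 in control cells and 1.36 and 1.41 with chaetocin. MAGED1 thus took 65.1% and 65.7% of the reads of the pair in control cells and 57.6% and 58.4% with chaetocin, and the Wilson intervals (64.2 to 66.6% over the control samples and 56.4 to 59.5% over the chaetocin samples) did not overlap. These intervals cover counting error only, the ratio was chosen after the data were seen, and with 2 samples a group it was not tested. MAGED1 and MAGED2 share few windows of 50 bases with other genes (0.540% and 1.62%).

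**Figure D4:**
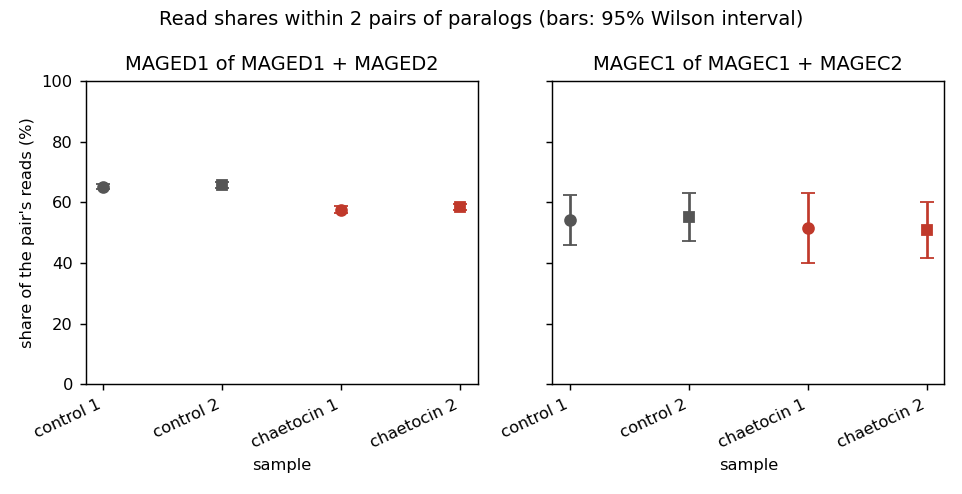
Share of MAGED1 among the reads of MAGED1 and MAGED2 (left) and of MAGEC1 among the reads of MAGEC1 and MAGEC2 (right), in percent, with 1 point per sample and 95% Wilson intervals as bars. The MAGED1 share is 65.1% and 65.7% in control cells and 57.6% and 58.4% with chaetocin, and the intervals of the MAGEC1 share overlap in all 4 samples.

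MAGEF1 (ENSG00000177383, chromosome 3, 184710367 to 184712002, minus strand), whose protein binds the iron-sulfur cluster assembly factor MMS19, lay on the other side of the controls. It had 803 and 940 reads in control cells and 981 and 1437 with chaetocin, or 32.9 and 32.7 CPM against 45.1 and 40.4 CPM. Both chaetocin samples lay above both controls, with a log2 fold change of 0.38 (standard error 0.15, edgeR adjusted p = 0.207) that did not pass the threshold. MAGEE1, a member with a pair of MAGE domains, had 32 and 34 reads against 43 and 56, and MAGEH1 had 296 and 307 against 274 and 437. Their log2 fold changes of 0.50 and 0.13 had adjusted p-values of 0.476 and 0.763 in edgeR.

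Of the 3 members on chromosome 15, NDN and NSMCE3 were tested and neither passed in either direction. NDN had 531 and 535 reads in control cells and 456 and 551 with chaetocin, and its log2 fold change of -0.15 (edgeR adjusted p = 0.730) turned to 0.05 without chaetocin replicate 2. NSMCE3 had 874 and 805 reads against 755 and 1233, and its log2 fold change of 0.12 (edgeR adjusted p = 0.742) turned to -0.06 without control replicate 2. MAGEL2, the imprinted neighbour of NDN, had no read in any sample. MAGEE2 and MAGED4 had none either, and MAGED4B had 3 reads, all in chaetocin replicate 1. MAGED4 and MAGED4B share 99.0% and 96.3% of their windows with other genes, so their counts are uncertain.

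**Figure D5:**
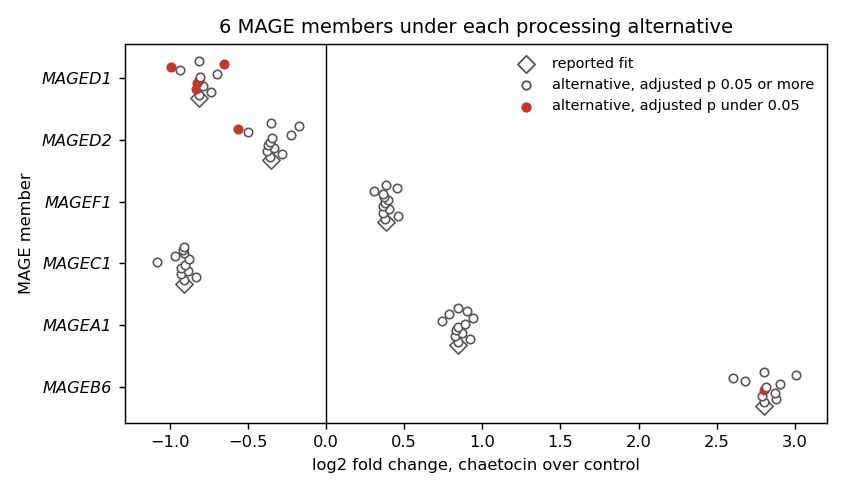
Log2 fold change, chaetocin over control, of 6 MAGE members under the reported fit (diamonds) and each processing alternative (circles, red where the adjusted p was under 0.05). MAGED1 stays between -0.99 and -0.65 and MAGEF1 between 0.30 and 0.46, and adjusted p-values under 0.05 occur for MAGED1, MAGED2 and MAGEB6.

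Of 39 partners of MAGE ligases and of the SMC5/6 complex, 36 were tested, 1 was called higher and 0 lower by edgeR, against 3 and 1 by DESeq2 and 5 and 4 at an unadjusted p under 0.05 (EID3 and TRIM31, 2 of these 5, reached the filter's minimum in the chaetocin samples alone). The edgeR counts lie near the shares of all genes given above and are no result about the partners, and the median log2 fold change was -0.03 beside 0.01 over all genes. The called gene was E2F1, a cell cycle transcription factor that NDN binds, with 4060 and 5029 reads in control cells and 7497 and 11193 with chaetocin (log2 fold change 0.95, standard error 0.15, edgeR adjusted p = 0.0311). TRIM28, the ligase partner of MAGEC2 and MAGEA3, had 8347 and 9631 reads against 10601 and 26643 (log2 fold change 0.87, edgeR adjusted p = 0.0835), and HUWE1 had a log2 fold change of -0.45 (edgeR adjusted p = 0.275). Of 18 enzymes and readers of heterochromatin and DNA methylation, 17 were tested and 0 called, with 0 higher and 1 lower at an unadjusted p under 0.05 and a median of 0.02. The most abundant, CBX5 and CBX3, had log2 fold changes of -0.10 and -0.02. DESeq2 also called 0 of these enzymes.

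The genes near the germline-restricted members and the imprinted genes around NDN were not called by edgeR as fitted for the members. Of 38 X chromosome neighbours of the MAGEA, MAGEB and MAGEC genes, 14 were tested and 0 called by edgeR, with 0 higher and 3 lower at an unadjusted p under 0.05, 1 call by DESeq2 and a median log2 fold change of -0.08. CD99L2 and POLA1, the most abundant, had values of -0.20 and 0.12. Of 18 imprinted or neighbouring genes of 15q11-q13, 12 were tested and 0 called by edgeR, with 0 higher and 2 lower at an unadjusted p under 0.05, and 0 calls by DESeq2. Their median was -0.07, and UBE3A and HERC2, the most abundant, had values of -0.09 and -0.11.

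Of the other cancer-testis genes, 1 was called. Of 82 such genes, 71 had a row, 28 of these had no read in any sample, and 12 were tested. TEX14, a gene of intercellular bridges in the testis, was called higher, with 0 reads in both control samples and 14 and 28 with chaetocin, which is at least 12.99-fold higher against a floor of 3 reads over the control group (edgeR adjusted p = 0.0384). In all, 9 of the 12 had a log2 fold change above 0 and 7 were higher and 1 lower at an unadjusted p under 0.05, 2 were called by DESeq2, both higher, and the median was 1.011, also with TEX14 at its bound. Of the 12, TEX14, DDX4, PIWIL2, TEX15 and STK31 reached the filter's minimum in the chaetocin samples alone, so these counts are no support for a difference. Over the other 7 the median was 0.06, with 4 above 0, 3 higher and 1 lower at an unadjusted p under 0.05. IL13RA2 and ACTL8, the most abundant, had log2 fold changes of 0.06 and -0.67. Of the 8 tested cell cycle genes that are also listed as cancer-testis genes, 0 were called by edgeR and 1 by DESeq2, with 1 higher and 0 lower at an unadjusted p under 0.05 and a median of 0.31, and CEP55 and ATAD2 had values of 0.31 and 0.64. Of 17 germ cell markers, 7 were tested and 0 called by edgeR or by DESeq2, with a median of -0.10, and PRM1, PRM2 and TNP1, which mark late germ cells, had no read in any sample. PRDM1 and TFAP2C, the most abundant of them, had values of -0.10 and -0.03, and 2 of the 7 were higher (DDX4 and NANOS3, which reached the filter's minimum in the chaetocin samples alone) and 1 lower at an unadjusted p under 0.05. POU5F1, with 11 and 19 reads in control cells and 4 and 11 with chaetocin, reached the filter's minimum in the control samples alone, so the counts and the median of this list are no support for a difference.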

How the data were processed

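RNA sequencing of 4 samples was analysed. The authors deposited raw read counts per gene and sample, which are whole numbers with no normalization. The submitters' processing notes name cutadapt, TopHat2 and SAMtools with the build GRCh37, and the counting tool, its strand setting and the annotation are not given in the sources used here. Libraries of polyadenylated RNA went through 15 PCR cycles, and reads were single-end and 50 bp long. Samples were grouped by their labels. Gene symbols, positions and exon lengths are those of GENCODE v29 on GRCh38, which holds 52338 of the 57905 identifiers, and promoter windows are those of RefSeq on GRCh38.p14. The build thus differs from that of the counts.

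The whole table was fitted with edgeR 4.0.16 in R 4.3.3 (filterByExpr with a minimum count of 10, TMM, robust quasi-likelihood fit and no block), with p-values adjusted by the method of Benjamini and Hochberg. The standard error is the size of the log2 fold change over the root of its F statistic. CPM uses TMM-scaled totals, and RPKM divides it by the union of a gene's exons. Transcripts were searched in windows of 50 bases for sequence shared with other genes. DESeq2 1.42.0 was an alternative, as were other size factors and filters, downsampling, a replicate block, adding near-identical copies and leaving out each sample. The scripts were tested on simulated data. Replicates of each group differed by more than sampling noise.

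The members and all gene lists were chosen with earlier results of these data known. Every member with at least 10 reads is given by sample, with full statistics where the unadjusted p was under 0.05. Of each list, called genes and the 2 uncalled genes of highest mean level are named, and TYROBP, CD3E, MS4A1, PRM1, PRM2, TNP1, SOX2 and S100B were added for their low counts, and genes that passed the filter through 1 group alone were added after their values were seen. Genes that overlap members on the same or the opposite strand (such as CSAG4 with MAGEA12, FAM189A1 with NSMCE3 and, antisense, AC078993.1 with MAGEB17) can share reads with them.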

Additional observations from a re-analysis of the deposited data

Results flagged for a closer look

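CSAG4, a transcribed pseudogene that overlaps MAGEA12 on the same strand and is no member, had 0 reads in both control samples, 2 reads in chaetocin replicate 1 and 7 reads in chaetocin replicate 2. It is given because reads appeared outside the members' rows in both treated samples and in no control. The 7 reads lie above the 3 reads that chance can leave unseen and the 2 reads do not, so 1 sample carries this value. MAGEA12 itself had 10 and 6 reads in control cells and 6 and 10 with chaetocin. How reads on the shared stretch were divided between the 2 rows was not tested.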

How the results depend on the processing

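The direction of MAGED1, MAGED2, MAGEF1, MAGEC1, MAGEC2, MAGEA1, MAGEB6, MAGEE1 and MAGEH1 was the same in every alternative in which each was fitted. With a sample left out, MAGEA6 ran from -0.63 to 0.25, NDN from -0.38 to 0.047 and NSMCE3 from -0.056 to 0.30, above 0 without control replicate 1 for MAGEA6, above 0 without chaetocin replicate 2 for NDN and below 0 without control replicate 2 for NSMCE3. The number of members called lower was 1 without the filter on low counts, 1 with DESeq2, 1 with the replicate block and 2 at an unadjusted p under 0.05, and 0 to 2 with a sample left out. The number called higher was 1 with the replicate block and 3 at an unadjusted p under 0.05, and 0 to 0 with a sample left out.

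The labels do not say whether the replicate numbers mark a shared day or culture. The deviations of same-numbered samples correlated with r = 0.123 across genes. With only 2 pairs, this value cannot decide whether same-numbered samples belong together. With the replicate block, the adjusted p was 0.000500 for MAGED1 and 0.0325 for MAGEB6, and the median log2 fold change of the germline-restricted class was -0.17. With the replicate block 8 partners, 2 X chromosome neighbours, 1 imprinted gene, 1 cell cycle gene and 7 other cancer-testis genes were called, beside 12.7% of all genes tested (1.85% without the block).

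The germline-restricted median was -0.16 with upper-quartile scaling, 0.42 without the filter, -0.44 with at least 10 counts in every sample, 0.41 with DESeq2, -0.19 after downsampling, and -0.56 to 0.47 with a sample left out. The ubiquitous median was 0.20, 0.10, 0.14, 0.11 and 0.10 under the same 5 alternatives, and -0.056 to 0.21 with a sample left out. Which members are tested depends on the filter, the tool and the samples kept, so these medians can cover different members. The summed germline-restricted level differed by -0.08 on the log2 scale, by 0.082 without TMM factors and by -0.42 without MAGEA1. The summed ubiquitous level differed by -0.45, and by -0.12 without MAGED1. Leaving out the TMM factors (0.942 and 0.948 for control, 1.03 and 1.09 for chaetocin) shifts all genes by 0.16. Both chaetocin samples of NSMCE3 then lay above both controls, and those of MAGED2 no longer both lay below. The shares of all genes above and below are not given for this scaling, so these moves are no result about the members. Germline-restricted members with at least 3 reads in at least 1 sample of the group numbered 7 in control cells and 9 with chaetocin. With at least 10 reads in at least 1 sample of the group, they numbered 5 and 7. By sample, at least 10 reads were found for 5 and 4 members in control cells and for 5 and 7 with chaetocin.

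For the lists, whose alternatives were added after the data were seen, calls without the filter were 7 partners, 2 neighbours, 1 imprinted gene, 1 cell cycle gene and 4 other cancer-testis genes. DESeq2 called 4, 1, 0, 1 and 2 of them, and upper-quartile scaling 2 partners and 2 other cancer-testis genes. At least 10 counts in every sample left 0 other cancer-testis genes. With a sample left out the calls ran from 0 to 10 partners, 0 to 2 neighbours, 0 to 1 imprinted genes, 0 to 3 cell cycle genes, 0 to 1 heterochromatin enzymes and 1 to 6 other cancer-testis genes. Of all genes, 4.88% were called without the filter, 5.28% by DESeq2, 2.03% with upper-quartile scaling, 1.34% under the stricter filter, and 1.74 to 17.0% with a sample left out. The causes were not tested. With 2 samples a group and 198 to 305 reads over the whole germline-restricted class, depth limits what can be said of single germline-restricted members.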
